A study of Rattus norvegicus with 10 samples.

Results

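The genes of the integrated stress response were examined in liver samples from 10 male rats, each 13 weeks of age. The response is represented by 9 genes: the transcription factors Atf4 and Ddit3, the feedback and stress proteins Trib3, Chac1, Sesn2 and Ppp1r15a, and the amino acid enzymes Asns, Psat1 and Phgdh. Every probe set that the platform's gene table assigned to just 1 of these genes was taken, which gave 12 of the 31042 probe sets tested, and 0 of the 12 were shared with another gene. Trib3 had 3 probe sets, Sesn2 had 2, and the other 7 genes had 1 each. The probe sets were taken by annotation alone, but the genes were chosen with earlier results of these data known.

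Both groups ate a diet in which instant noodle made up 30 wt% and fat supplied 26% of the energy, for 30 days. The seasoned group received it with its seasonings, and the control group without them. Feeding was paired at about 60 g of diet per kg body weight and day, with 12 h of light and 12 h of dark. Each group held 5 animals with 1 array each, numbered 1, 4, 7, 10 and 13 in the seasoned group and 2, 5, 8, 11 and 14 in the control group. The labels name no strain and give no time of day for tissue collection. Each label also holds a code whose letter is A for all seasoned livers and B for all controls, so that whatever this letter marks and the diet cannot be told apart.

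Values are log2 signals, in which a difference of 1 is a doubling. The 7 measured hepatocyte markers lay between 12.16 and 14.34. The labels' extraction text speaks of brain, and the 7 measured brain markers lay between 5.71 and 7.26, with 5 of them under the median of all probe sets (6.48). Diet differences were counted in markers whose values varied, as defined below. At an unadjusted p under 0.05, 1 of 2 such hepatocyte markers and 0 of 7 such Kupffer cell markers differed. Lists of other cell types held at most 3 such markers each, and 0 of these differed. Among all 2613 genes whose values varied, 6.97% were higher and 4.82% lower at this threshold. With so few markers, most of these lists could hardly show a change. For 87.0% of the probe sets tested the deposited value hardly moved over the 10 livers, with a standard deviation (SD) at or under 0.01. They are called near-constant here, and the remaining 4050 (13.0%) varying.

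The integrated stress response is a common answer of cells to amino acid shortage, endoplasmic reticulum stress, viral RNA and haem deficiency. Each stress activates its own kinase, and all of these kinases phosphorylate the translation initiation factor eIF2, which slows protein synthesis in general while the Atf4 messenger is translated more. Atf4 protein then switches on genes for amino acid synthesis and uptake and for stress proteins. Ppp1r15a closes the loop as the subunit that guides a phosphatase to eIF2. In liver the pathway is known for its response to dietary protein and amino acids. Because Atf4 is controlled largely at translation, its messenger level is not a direct readout of its protein. The arrays measure messenger levels alone, so neither eIF2 phosphorylation nor Atf4 protein is covered by the data.

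Atf4 and its partners of the C/EBP family bind composite sites known as C/EBP-ATF response elements. The letters TGATGNAA, on either strand, were searched in the 250 bases before the start site of each member in the RefSeq promoters of the GRCr8 assembly, in which all 9 members were found. They were present in 2 of the 9 members, Trib3 and Chac1, and in 3.4% of all 33469 promoters of that length. The windows of these 2 genes are shown because they hold the match, and both genes are established Atf4 targets. They are written 5′ to 3′ on the strand of the gene, and capitals mark the match, which reads as the reverse complement of the searched letters.
Trib3, minus strand, chr3:161275534-161275783: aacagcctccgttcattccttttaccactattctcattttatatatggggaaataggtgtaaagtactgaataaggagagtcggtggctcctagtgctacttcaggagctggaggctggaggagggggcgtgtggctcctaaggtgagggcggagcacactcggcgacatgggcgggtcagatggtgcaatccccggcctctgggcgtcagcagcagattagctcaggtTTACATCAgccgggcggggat
Chac1, plus strand, chr3:126795881-126796130: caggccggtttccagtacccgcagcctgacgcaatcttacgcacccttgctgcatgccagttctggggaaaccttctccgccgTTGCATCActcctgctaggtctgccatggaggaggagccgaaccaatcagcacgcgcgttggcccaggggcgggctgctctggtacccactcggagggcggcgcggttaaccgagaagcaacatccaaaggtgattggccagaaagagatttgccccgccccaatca
The match lies 21 to 14 bases before the start site in Trib3 and 167 to 160 bases before it in Chac1. The palindrome TGACGTCA, the cyclic AMP response element, occurred in the window of Ppp1r15a, 66 to 59 bases upstream, and in 1.59% of all windows. The E-box letters CACGTG occurred in the window of Atf4, 82 to 77 bases upstream, and in 5.59% of all windows. A match describes letters and is no evidence of binding in these livers.

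Of the 12 probe sets, 0 were called between the diets by limma at an adjusted p under 0.05, where 0 of all 31042 were called as well (0.0%). At an unadjusted p under 0.05 the count was also 0 of 12, against a background of 4.48%. A test with unequal variances per probe set gave 0 of 31042 at the adjusted and 1139 at the unadjusted threshold, with 0 of the 12 at either. The ranges of the 2 groups overlapped in all 12, against 0.77% of all probe sets without overlap. Only 5 of the 12, in Atf4, Trib3 and Sesn2, varied between livers. Their median difference, seasoned minus control, was -0.09, with 4 lower and 1 higher under the seasoned diet. The median over all varying probe sets was 0.008, with 46.7% of them lower. When the varying probe sets were fitted alone, 13 of 4050 (0.321%) were called and 0 of the 5 members, whose adjusted p ran from 0.464 to 0.989. At an unadjusted p under 0.05 this fit took 12.9% of the varying probe sets and 0 of the 5.

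**Figure D1:**
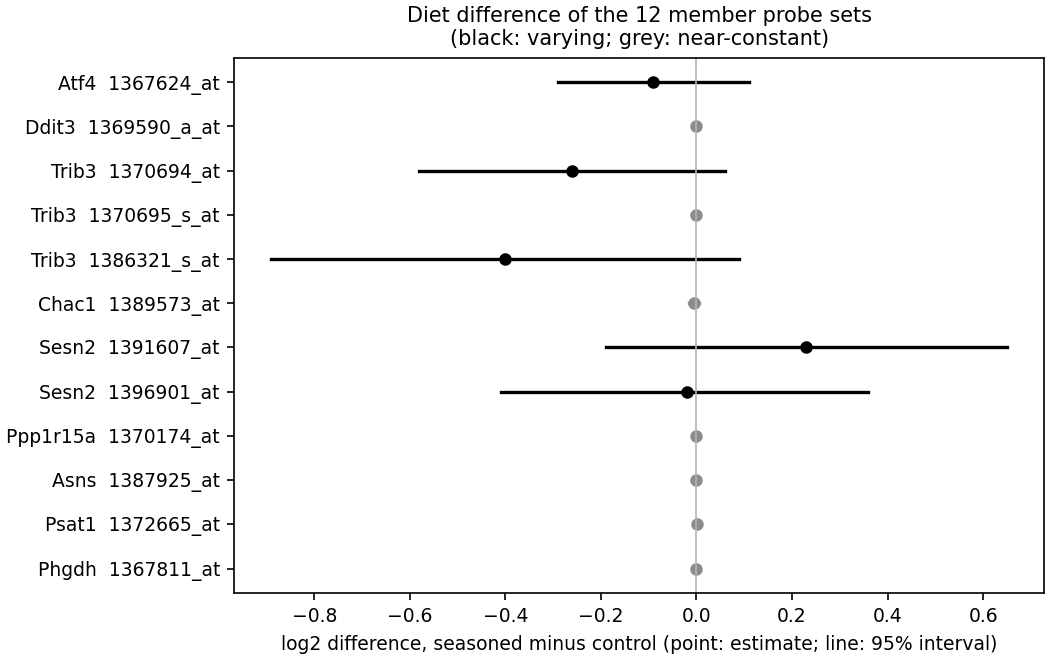
Log2 difference between the seasoned and the control livers (5 each) for the 12 probe sets of the 9 genes, with points for the estimates and lines for the 95% intervals of the limma fit. Black marks the 5 varying and grey the 7 near-constant probe sets. All 5 black lines cross 0, and the grey points lie within 0.005 of it.

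Atf4, the transcription factor at the centre of the response, had a nearly even level under the seasoned diet. The seasoned livers 1, 4, 7, 10 and 13 measured 9.77, 9.76, 9.82, 9.79 and 9.77. The control livers 2, 5, 8, 11 and 14 measured 9.63, 9.78, 9.80, 10.09 and 10.06. Controls 11 and 14 lay above every seasoned liver and control 2 below every one of them, so that the control range enclosed the seasoned range. The means were 9.78 ± 0.03 and 9.87 ± 0.20 (SD, n = 5 each). The difference of -0.09 ± 0.09 (SE) was within the spread (exact permutation p = 0.341, two-sided as are all tests here, limma adjusted p = 1.0). Its 95% interval reached from -0.29 to 0.11. Without control 11 the difference was -0.04 and without control 2 it was -0.15.

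Ddit3, which encodes the stress factor CHOP, was near-constant. Its values lay between 6.7275 and 6.7283 in all 10 livers, and the difference was -0.00013 (limma adjusted p = 1.0). In bulk tissue such as this, fewer cells of a type and less RNA per cell cannot be told apart, which holds for every level given here.

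Trib3, a pseudokinase that is induced by Atf4 and Ddit3 and damps their activity and that of the kinase Akt, showed the largest differences among the 9 genes. By the probe set 1386321_s_at the seasoned livers measured 7.06, 6.72, 6.55, 6.76 and 6.62. The controls measured 6.46, 6.90, 7.34, 7.46 and 7.54. Controls 8, 11 and 14 lay above every seasoned liver, while control 2 lay below every one of them. The means were 6.74 ± 0.20 and 7.14 ± 0.45 (SD, n = 5 each), a level 1.32-fold higher in the controls. The difference was -0.40 ± 0.22 (SE), with a 95% interval from -0.89 to 0.09, and was not called (exact permutation p = 0.111, limma adjusted p = 1.0). Among the varying probe sets 7.1% had a larger difference in size. A single liver moved the value: it was -0.57 without control 2, -0.30 without control 14 and -0.32 without control 11.

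The second varying probe set of Trib3, 1370694_at, differed less, in the same direction. The seasoned livers measured 6.82, 6.50, 6.26, 6.53 and 6.38. The controls measured 6.46, 6.59, 6.76, 7.03 and 6.96. Controls 11 and 14 were again the highest of the 10, and seasoned liver 1 was the highest of its group, as before. The difference was -0.26 ± 0.14 (SE; exact permutation p = 0.111, limma adjusted p = 1.0), with a 95% interval from -0.58 to 0.06. Leaving out each liver in turn moved it between -0.34 and -0.19.

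**Figure D2:**
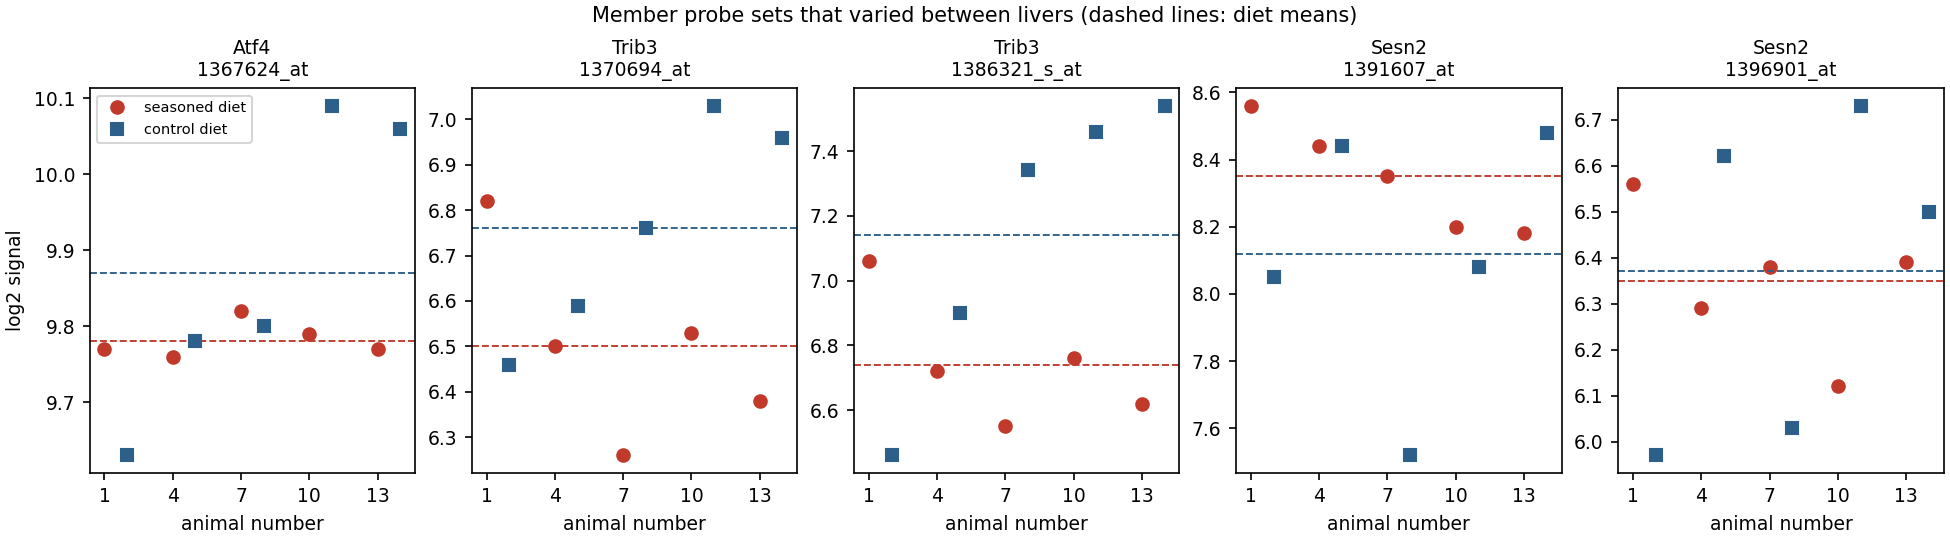
Log2 signal of the 5 varying probe sets in each of the 10 livers, in order of animal number, with red circles for the seasoned and blue squares for the control diet and dashed lines at the group means. Atf4 and both Trib3 probe sets are high in controls 11 and 14, while in Sesn2 the controls lie on both sides of the seasoned livers for 1396901_at and mostly below them for 1391607_at.

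The third probe set of Trib3, 1370695_s_at, was near-constant at 7.33, between 7.3333 and 7.3339, and gave a difference of -0.00024 (limma adjusted p = 1.0). Yet within this narrow span the livers stood in nearly the same order as in the other 2 probe sets, a comparison made after the values had been seen. Against 1370694_at over the 10 livers, Pearson's r was 0.97 and Spearman's rho 0.99 (permutation p = 1e-05 for each, the smallest that 100000 permutations can give). Against 1386321_s_at r was 0.95 (permutation p = 1e-05) and rho 0.93 (permutation p = 0.00038), and adjustment over these 2 relations left both p-values of r at 1e-05 and gave 2e-05 and 0.00038 for rho. Without the 2 livers farthest from the median r was 0.96 and 0.93, and within the 4 combinations of diet and animal numbers described below it was 0.93 and 0.96. The SD over the 10 livers was 0.00026 for 1370695_s_at, against 0.25 and 0.39 for the others. The same messenger thus appears as flat or as different between livers according to the probe set. Since 1370695_s_at has the highest mean of the 3, taking the brightest probe set per gene shows Trib3 as flat, and the mean of the 3 probe sets gave a difference of -0.22.

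The same comparison over all genes covered 1574 pairs of a near-constant and a varying probe set of the same gene. The median r was 0.47, with 72.7% of pairs above 0 and 47.5% above 0.5. For the 534 pairs of varying probe sets of the same gene the median r was 0.87, with 94.9% above 0. These shares are a description across genes, which are not independent replicates.

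Chac1, which breaks down glutathione and is induced through Atf4, had the widest spread among the near-constant probe sets of the set, with an SD of 0.0069. The seasoned livers measured 7.1356, 7.1369, 7.1387, 7.1481 and 7.1414. The controls measured 7.1378, 7.1392, 7.1445, 7.1586 and 7.1456. Control 11 was highest, as in Atf4 and 1370694_at of Trib3, but all values fell between 7.1356 and 7.1586. The difference was -0.005 ± 0.0042 (SE; limma adjusted p = 1.0).

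Sesn2 encodes a leucine-binding stress protein that restrains the growth kinase complex mTORC1. By 1391607_at the seasoned livers measured 8.56, 8.44, 8.35, 8.20 and 8.18. The controls measured 8.05, 8.44, 7.52, 8.08 and 8.48. Seasoned liver 1 was the highest of the 10, controls 2, 8 and 11 lay below every seasoned liver, and control 8 lay farthest below. The means were 8.35 ± 0.16 and 8.12 ± 0.39 (SD, n = 5 each). The difference of 0.23 ± 0.18 (SE) had a 95% interval from -0.19 to 0.65 (exact permutation p = 0.27, limma adjusted p = 1.0). Without control 8 it was 0.08, and without control 14 it was 0.32.

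The other probe set of Sesn2, 1396901_at, did not show that difference. The seasoned livers measured 6.56, 6.29, 6.38, 6.12 and 6.39. The controls measured 5.97, 6.62, 6.03, 6.73 and 6.50. Controls 2 and 8 were the lowest of the 10 livers and controls 5 and 11 the highest, so the controls surrounded the seasoned livers. The difference was -0.02 ± 0.17 (SE; exact permutation p = 0.897, limma adjusted p = 1.0). Its 95% interval reached from -0.41 to 0.36. Both probe sets were measured on the same livers, and whether the 2 readings of Sesn2 differ was not tested.

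Ppp1r15a, the stress-induced phosphatase subunit also known as GADD34, was near-constant between 6.9358 and 6.9370. Its difference was -0.00038 ± 0.00017 (SE; limma adjusted p = 1.0). A second quantile normalization turned its sign, to 0.0001. Its constitutive paralog Ppp1r15b varied, with a mean of 9.42 ± 0.08 in the seasoned and 9.56 ± 0.20 in the control livers (SD, n = 5 each) and a difference of -0.14 ± 0.09 (exact permutation p = 0.198, limma adjusted p = 1.0). Trib1, a paralog of Trib3 known in liver for its bearing on lipid metabolism, differed by -0.22 ± 0.20 (exact permutation p = 0.317, limma adjusted p = 1.0).

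The 3 amino acid enzymes showed no measurable movement. Asns, which makes asparagine and is a classical Atf4 target, lay between 5.8437 and 5.8451, with a difference of -0.000076 (limma adjusted p = 1.0). Psat1 and Phgdh, which make serine from a glycolytic intermediate, lay near 6.13 and 6.15, with differences of 0.00018 and -0.000056 (limma adjusted p = 1.0 for both). All 3 were under the median signal of the array. At such levels few probe sets moved at all: 1.1% of those below the median were varying, against 25.0% of those at or above it. In the bin from 5.5 to 6.0, which holds Asns, the share was 0.4%, and from 6.0 to 6.5, which holds Psat1, Phgdh and 1396901_at of Sesn2, it was 1.7%. It was 6.9% from 6.5 to 7.0, 17.9% from 7.0 to 7.5, 42.3% from 8.0 to 8.5 and 61.5% in the bin of Atf4. Since flat and moving probe sets stood side by side in Trib3, the flat values of these enzymes are values of the probe sets and set no bound on their messengers.

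**Figure D3:**
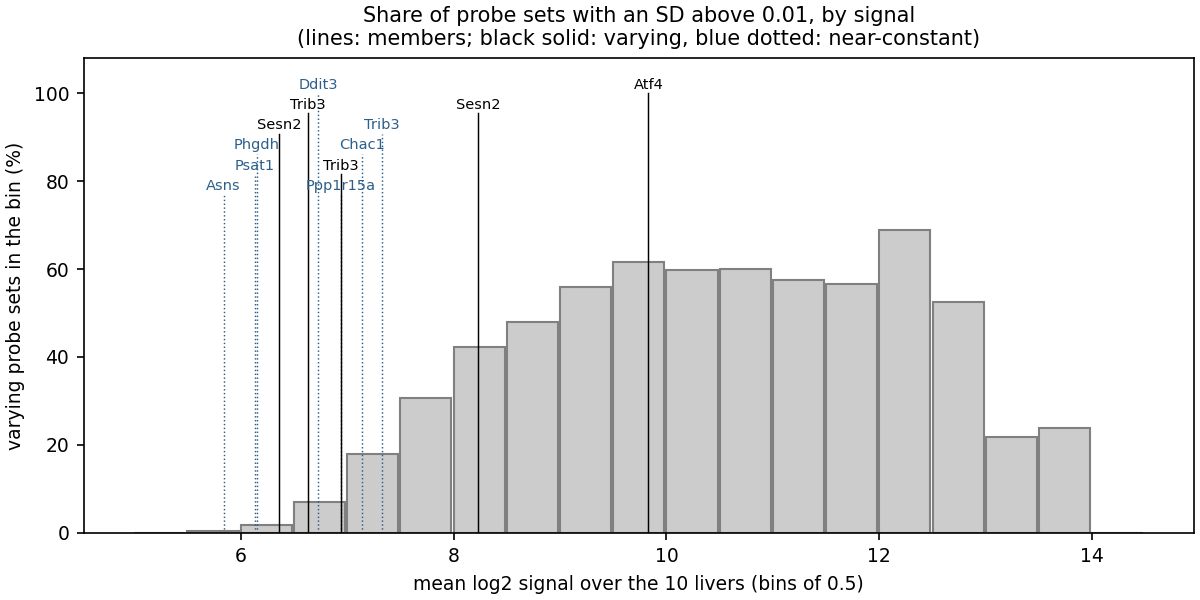
Share of varying probe sets (SD over the 10 livers above 0.01) in bins of mean log2 signal, with lines at the 12 probe sets of the 9 genes, solid black where varying and dotted blue where near-constant. The share rises from 0.4% in the bin of Asns to 61.5% in the bin of Atf4, and 4 of the 12 probe sets lie under the median level of all probe sets.

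Sds, which degrades serine to pyruvate in liver, gives the opposite arm of serine metabolism. It measured 7.54 ± 0.90 in the seasoned and 9.56 ± 0.52 in the control livers (SD, n = 5 each). The difference was -2.03 ± 0.45 (SE; exact permutation p = 0.0159, limma adjusted p = 0.634), and its adjusted p was 0.0736 among varying probe sets alone. Leaving out 1 liver moved the Sds difference between -2.40 and -1.84. Among varying probe sets alone, Sds was called in 2 of these fits (smallest limma adjusted p = 0.0249). The enzymes of serine synthesis gave no varying value to set beside it, since Psph, the last enzyme of that route, was also near-constant at 6.69.

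The differences of Trib3 and Atf4 were unevenly spread over the animals. Earlier work on these data found many probe sets that separate animals 1 to 7 from animals 8 to 14, a split that was found in the data and is no batch that the labels give. With diet in the model, 1016 of the 31042 probe sets (3.27%) differed between the 2 sets at an adjusted p under 0.05, and 0 of the 12 here. At an unadjusted p under 0.05 the comparison took 8280 of the 31042 and 1 of the 12, Chac1. Because the split came from these same data, counts and p-values for the difference between the 2 sets, here and below, are descriptions. They are no independent test of the split. For Trib3 by 1386321_s_at the seasoned and control means were 6.78 and 6.68 in animals 1 to 7, a difference of 0.10. In animals 8 to 14 they were 6.69 and 7.45, a difference of -0.76. The seasoned means thus lay close together in both sets, and the control means lay apart. The change in the diet difference from the first set to the second was -0.85 ± 0.26 (SE; limma interaction, adjusted p = 0.668). Of all probe sets, 0 of 31042 (0.0%) had such an interaction at an adjusted p under 0.05 by limma, and 2058 at an unadjusted p under 0.05. With the split as a block, the diet difference was -0.33 ± 0.20.

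By 1370694_at the Trib3 differences in the 2 sets were 0.00 and -0.46, and for Atf4 they were 0.08 and -0.20 (limma interaction, adjusted p at least 0.668 for every probe set of the 9 genes). For Sesn2 by 1391607_at they were 0.20 and 0.16. In the unfolded protein response, the transcription factor Xbp1 also differed more in the second set, with -0.06 in animals 1 to 7 and -0.97 in animals 8 to 14 (limma interaction, adjusted p = 0.528). Its seasoned means were 10.85 and 10.53 and its control means 10.91 and 11.50, so that both diets moved. Herpud1 went the other way, with -0.83 and then -0.37 (limma interaction, adjusted p = 0.858), and no test compared these genes with Trib3. Kupffer cell markers moved with the split. All 7 varying ones of the 8 measured were lower in animals 8 to 14, and 2 of the 8, Clec4f at -0.55 and C1qa at -0.30, had an adjusted p under 0.05 (limma adjusted p = 0.0285 and 0.0489). As markers of 1 cell type they are not independent of each other. The share of all varying probe sets that were lower in animals 8 to 14 is not given here. The mean level of the list lay between 8.35 and 8.53 in animals 1 to 7 and between 7.97 and 8.21 in animals 8 to 14, without overlap, and its part in the Trib3 values was not tested. Animals 1 to 7 hold 3 seasoned and 2 control livers and animals 8 to 14 hold 2 and 3, so each difference rests on 5 livers. Control 11, which was among the highest in Atf4 and Trib3, was also apart in the clock gene Dbp, with 7.28 against 9.08 to 9.43 in the other controls. The part of this liver in the Trib3 difference is given by the value without it, -0.32.

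The varying members were compared with each other over the 10 livers, which made 10 pairs. The 2 varying Trib3 probe sets moved together, with r = 0.94 (permutation p = 8e-05, Benjamini-Hochberg adjusted 0.0008) and rho = 0.94 (permutation p = 0.00021, adjusted 0.0021). Without the 2 livers farthest from the median r was 0.86, and centred within diet and animal set it was 0.87. Atf4 and Trib3 by 1386321_s_at gave r = 0.81 (permutation p = 0.00274, adjusted 0.0137) and rho = 0.67 (permutation p = 0.0399, adjusted 0.20). That relation rested on a few livers, since r was 0.44 without the 2 farthest ones, and it was 0.41 centred within diet and animal set. With 1370694_at, r was 0.72 (permutation p = 0.016, adjusted 0.0533) and rho 0.54 (permutation p = 0.113, adjusted 0.207), and r was 0.05 without the 2 farthest livers. The 2 Sesn2 probe sets gave r = 0.57 (permutation p = 0.082, adjusted 0.164) and rho = 0.53 (permutation p = 0.122, adjusted 0.207), with r = 0.30 without the 2 farthest livers. Atf4 and 1396901_at of Sesn2 gave r = 0.64 (permutation p = 0.0458, adjusted 0.115) and rho = 0.44 (permutation p = 0.204, adjusted 0.291), with r = 0.46 without the 2 farthest livers and 0.84 centred within diet and animal set. Atf4 and 1391607_at of Sesn2 gave r = 0.10 (permutation p = 0.769, adjusted 0.854) and rho = 0.02 (permutation p = 0.972, adjusted 0.972), while r centred in the same way was 0.83. Centring on the 4 combinations thus lowered r of Atf4 with Trib3 and raised it with Sesn2, a difference that was not tested. For the other 4 pairs the adjusted permutation p of r was at least 0.299.

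The genes whose pattern over the 10 livers was most like that of Trib3 by 1386321_s_at, among 3239 varying probe sets of other single genes, were Ell, Nufip2 and Rbm15, with Pearson's r of 0.937, 0.937 and 0.934. Their diet-centred r was 0.926, 0.913 and 0.918, and 10 probe sets in all exceeded 0.9. For Atf4 the closest were Cpne8, Kmt2e and Suco at 0.879, 0.874 and 0.874, and for Sesn2 by 1391607_at they were Skil, Tcf7l2 and Pdia5 at 0.910, 0.902 and 0.899. These are the highest of 3240 or 3239 values per gene over 10 livers and are given as a description.

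The wider pathway was read from a list of 74 genes, of which 71 were measured and 24 varied, each represented by its brightest probe set. By limma over all probe sets 0 of the 71 were called. At an unadjusted p under 0.05, 2 of the 24 were higher and 3 lower under the seasoned diet against 6.97% and 4.82% of the 2613 varying genes. Their median difference was 0.05, with 14 higher and 10 lower.

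Among the 4 eIF2 kinases, which sense the stresses, Eif2ak2 alone varied, at -0.03 ± 0.04 (SE; exact permutation p = 0.508, limma adjusted p = 1.0). Eif2ak3 and Eif2ak4, the sensors of endoplasmic reticulum stress and amino acid shortage, were near-constant at 7.28 and 6.73. The 8 measured subunits of eIF2 and of its exchange factor eIF2B were near-constant. Of the 5 phosphatase and regulator genes 3 varied and 0 had an unadjusted p under 0.05.

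Among the 8 transcription factors that act beside Atf4, 5 varied. Cebpb, a C/EBP factor that pairs with Atf4, measured 9.97, 9.49, 9.63, 9.40 and 9.69 in the seasoned and 9.81, 10.13, 10.05, 10.20 and 10.36 in the control livers. Seasoned liver 1 overlapped control 2, and the other seasoned livers lay below all controls. The difference was -0.47 ± 0.13 (SE; exact permutation p = 0.0159, limma adjusted p = 0.773), with -0.28 in animals 1 to 7 and -0.66 in animals 8 to 14. Atf5, a paralog of Atf4 rich in liver, differed by 0.18 ± 0.12 (exact permutation p = 0.214, limma adjusted p = 1.0), and Nupr1 by -0.02 ± 0.15 (exact permutation p = 0.905, limma adjusted p = 1.0). Atf3, which is induced downstream of Atf4, was near-constant at 6.07.

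Of the 9 amino acid transporters 3 varied, and they did not share a direction. Slc1a4, a carrier of alanine, serine and cysteine, measured 6.50, 6.58, 6.62, 6.61 and 6.54 in the seasoned and 6.14, 6.48, 6.11, 6.49 and 6.31 in the control livers. It was the only gene of the 24 whose groups did not overlap, against 2.99% of varying probe sets, though the gap between seasoned liver 1 and control 11 was small. The difference was 0.26 ± 0.08 (SE; exact permutation p = 0.00794, limma adjusted p = 0.85). Slc38a2, a sodium-coupled carrier of neutral amino acids, went the other way, with 8.17 ± 0.25 in the seasoned and 8.61 ± 0.24 in the control livers (SD, n = 5 each). Its difference was -0.44 ± 0.15 (SE; exact permutation p = 0.0159, limma adjusted p = 0.927). Slc3a2, the partner chain of several carriers, differed by 0.13 ± 0.12 (exact permutation p = 0.31, limma adjusted p = 1.0), and Slc7a11, the cystine carrier, was near-constant at 5.92.

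Of the 10 measured enzymes of serine, proline and one-carbon metabolism 6 varied. Cth, which makes cysteine from cystathionine, measured 12.05 ± 0.14 in the seasoned and 11.76 ± 0.22 in the control livers (SD, n = 5 each). Its difference of 0.30 ± 0.11 (SE; exact permutation p = 0.0635, limma adjusted p = 1.0) was 0.13 in animals 1 to 7 and 0.34 in animals 8 to 14. Shmt2, the mitochondrial serine hydroxymethyltransferase, differed by 0.13 ± 0.10 (exact permutation p = 0.262, limma adjusted p = 1.0), and Mthfd2 was near-constant at 6.50. Of the 13 genes for aminoacyl-tRNA synthetases and tRNA export 2 varied, by 0.08 and 0.11, and neither had an unadjusted p under 0.05. The secreted stress hormones Fgf21 and Gdf15 were near-constant at 6.97 and 6.38. Cdkn1a, the cell cycle inhibitor p21, had the largest difference of the 24 genes and is named after its values were seen. The seasoned livers measured 8.61, 8.51, 8.07, 7.41 and 7.50, and the controls 6.71, 6.61, 6.94, 8.57 and 6.80. Control 11 alone among the controls lay within the seasoned range, and the other controls lay below it. The difference was 0.89 ± 0.43 (SE; exact permutation p = 0.0794, limma adjusted p = 1.0), with 1.73 in animals 1 to 7 and 0.02 in animals 8 to 14 (limma interaction, adjusted p = 0.76). Without control 11 it was 1.25 (limma adjusted p = 0.437), and among varying probe sets alone it was then called (limma adjusted p = 0.0452), against an adjusted p of 0.38 with all 10 livers. Sqstm1, an autophagy receptor, differed by -0.15 ± 0.05 (SE; exact permutation p = 0.0397, limma adjusted p = 0.899), with -0.26 in animals 1 to 7 and -0.03 in animals 8 to 14.

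**Figure D4:**
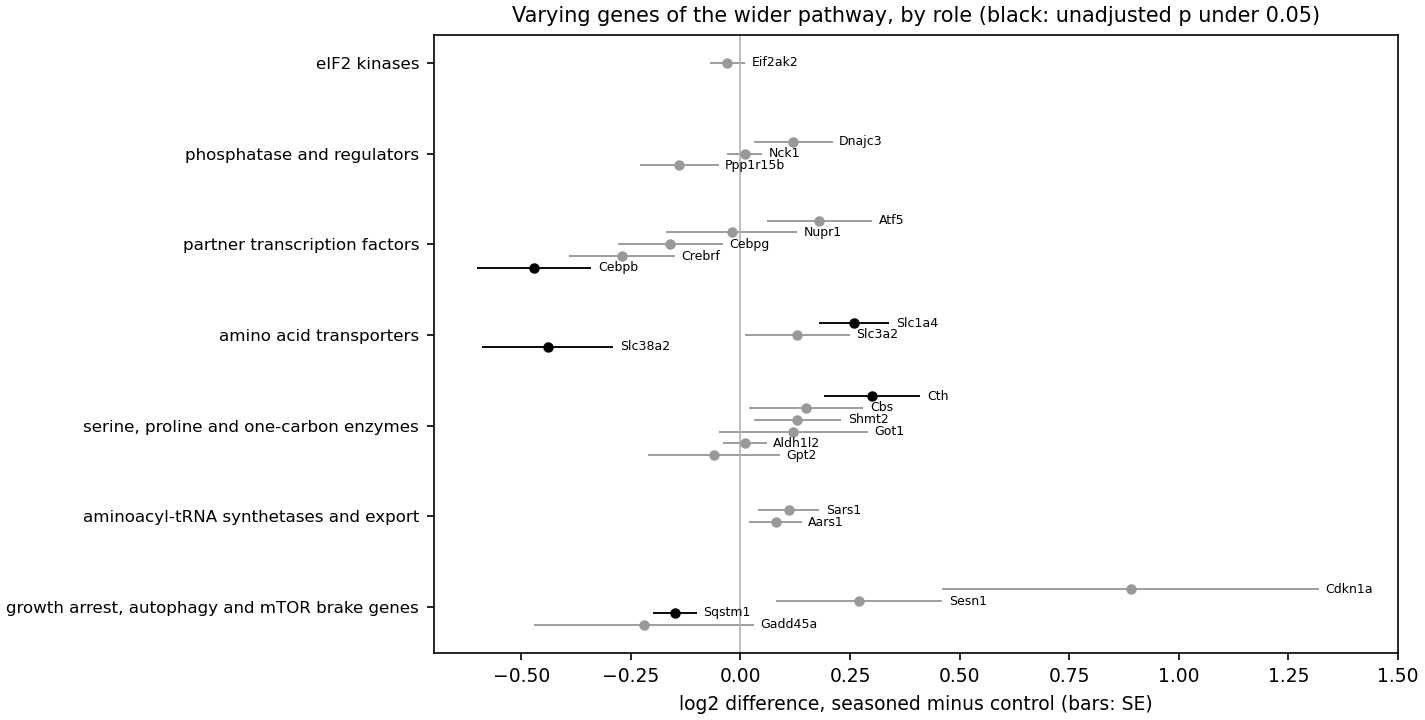
Log2 difference, seasoned minus control, with its SE for the 24 varying genes of the wider pathway, grouped by role, with black for an unadjusted limma p under 0.05. Slc1a4 and Cth lie to the right of 0 and Cebpb, Slc38a2 and Sqstm1 to the left, so the black points fall on both sides.

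The neighbouring unfolded protein response shares the kinase Eif2ak3 with this pathway. All 8 of its listed genes varied, with 6 higher and 2 lower under the seasoned diet. Herpud1, which takes part in the degradation of endoplasmic reticulum proteins, differed by -0.59 ± 0.15 (SE; exact permutation p = 0.0317, limma adjusted p = 0.766). Leaving out 1 liver moved the Herpud1 difference between -0.72 (without control 11) and -0.51 (without seasoned liver 7). Among varying probe sets alone, Herpud1 was called in 1 of these fits (smallest limma adjusted p = 0.0072), against 0.104 with all 10 livers. Xbp1 differed by -0.54 ± 0.17 (SE; exact permutation p = 0.0238, limma adjusted p = 0.865). Sdf2l1, an endoplasmic reticulum chaperone partner, differed by 0.28 ± 0.09 (SE; exact permutation p = 0.0238, limma adjusted p = 0.85), while Hspa5, the main chaperone there, differed by 0.07 ± 0.13 (exact permutation p = 0.635, limma adjusted p = 1.0).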

How the data were processed

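From each of 10 livers, 100 ng of total RNA was labelled, per the labels' protocols, and measured on an array with Affymetrix-style probe set names. The deposited table holds a log2 signal per probe set and array, made by the authors; its summary and normalization methods are not given in the sources used here. Base 2 was read from its range, 4.79 to 14.34. Array medians lay between 6.47 and 6.48. No detection calls were used here. The number of arrays sets a limit on precision. After 57 control probe sets were left out, 20826 of 31042 had 1 gene, 436 several and 9780 none in the platform's table, and symbols were updated by gene ID for 20758 through the GRCr8 gene table.

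Diets were compared by two-sided limma 3.58.1 fits (R 4.3.3, lmFit then eBayes), with Benjamini-Hochberg adjustment over all 31042 probe sets. The p-values measure the spread between animals. Single values were tested by exact permutation over the livers, whose smallest possible p is 0.00794. Members, lists and alternatives were chosen with earlier results of these data known. Named were all members, listed genes with an SD above 0.01 and an unadjusted p under 0.05 (at most 3 per role), and a fixed set of pathway genes. Eif2ak2, Ppp1r15b, Cdkn1a, Clec4f and C1qa were added to the named genes with their values known. Alternatives were other probe set rules, filters, normalizations and variance models, animal-number terms, an assumed pairing and leaving out each liver. The main fit was also run on simulated data, with independent livers and differences put into varying probe sets alone. That run does not bear on near-constant probe sets or on differences between sets of animals.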

Additional observations from a re-analysis of the deposited data

Results flagged for a closer look

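Values in which a single liver stood apart were sought in the varying members and named genes, by the gap of the extreme liver to its nearest neighbour divided by the range of its group of 5. Of 50 groups tested, 4 exceeded the 95% critical value of 0.71, and chance alone gives about 1 in 20. The genes added to the named ones with their values known, such as Cdkn1a, were not among the 50 groups. In Cdkn1a control 11 also lay apart, with 8.57 against 6.61 to 6.94 in the other controls. None of the 5 varying probe sets of the 9 genes was among them. In Herpud1 the seasoned liver 7 was low, with a gap of 0.8 of the range, and control 11 was low, with 0.793. Control 11 was also low in Dbp, with 0.834, and high in Bmal1, with 0.806. Without control 11 the difference of Trib3 by 1386321_s_at was -0.32, that of Atf4 was -0.04 and that of Herpud1 was -0.72.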

How the results depend on the processing

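In every alternative run, 0 of the 12 probe sets of the 9 genes were called. The count over all probe sets was 0 in the comparison as reported. It was 255 with arrays centred on the median of varying probe sets, a shift of -0.13 to 0.09 per array, 13 among varying probe sets alone and 22 with the block for animals 1 to 7 added. Leaving out each liver gave 0 to 10, with 10 without control 11. Among varying probe sets alone it gave 0 to 84: 84 without control 11, 21 without seasoned liver 10, 18 without control 2, 8 without seasoned liver 13, 3 without control 5, 2 without control 8 and 0 otherwise. The block and the fits that left out livers among varying probe sets were chosen after seeing the data. Centring moved the near-constant probe sets as well. For every probe set limma also draws on an SD estimated from all probe sets in the fit. That SD was 0.000107 in the comparison as reported, 0.0905 with centred arrays and 0.142 among varying probe sets alone. The cause of the shifts in the counts was not tested.

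At an unadjusted p under 0.05, the members numbered 4 of 12 without control 2, 3 with centred arrays and 2 without seasoned liver 1. They numbered 1 with array weights or with neighbouring animals assumed to be paired. Of all 31042 probe sets, these runs took 1629, 1108, 1191, 2878 and 1666, in the same order. The sign turned for 1396901_at of Sesn2, to 0.09 with array weights and within a leave-one-out range of -0.12 to 0.07 (0.07 without control 11, 0.04 without control 5, 0.03 without seasoned liver 10, 0.01 without control 14). It turned for Nupr1 (-0.14 to 0.06, with 0.06, 0.04 and 0.02 without control 2, seasoned liver 7 and control 14) and Hspa5 (-0.02 to 0.14) when livers were left out, with and without the near-constant probe sets. For Atf4 and both varying probe sets of Trib3 the sign was negative in every alternative run, though within animals 1 to 7 alone the differences were 0.08, 0.00 and 0.10. The groups share no replicate number, and no label pairs the animals. With neighbouring animals assumed to be paired, 0 of 31042 probe sets were called and 1666 had an unadjusted p under 0.05. Of the other varying genes named, leaving out 1 liver moved Trib1 from -0.33 (without control 5) to -0.08 (without seasoned liver 1), Ppp1r15b from -0.20 to -0.09, Atf5 from 0.11 (without control 8) to 0.27 (without control 14), Slc3a2 from 0.08 (without control 11) to 0.22 (without control 5) and Shmt2 from 0.08 (without control 8) to 0.19 (without seasoned liver 10).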
